A study of Saccharomyces cerevisiae with 312 samples.

Results

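HBS1 and SLH1 encode 2 budding yeast proteins that act on ribosomes stalled on mRNA. The genes were each deleted in a query strain, and each query was screened on 2 arrays, so 4 of the 312 arrays of the series are described here. The arrays were taken by the query gene in their labels, and this pair of queries was picked with earlier results of these data known. The series is a set of genetic interaction mapping (GIM) screens, in which a strain with the query deletion is mated with a pooled collection of barcoded mutants, haploid double mutants are selected, and the DNA barcodes of the query population and of a reference population are compared on a 2-colour array. The tested groups are the haploid double mutant population carrying the HBS1 (YKR084C) deletion and the one carrying the SLH1 (YGR271W) deletion. Both were grown for 18 generations under selection with G418 and nourseothricin. The reference population of all 4 arrays was a mix of many deletion queries, screened under the same conditions, so each value sets 1 query against the average of many others and not against wild type. Screen 1 of HBS1 and screen 1 of SLH1 shared 1 such reference pool, and screen 2 of each shared another. Nothing in the labels tells whether both screens of a query came from separate crosses or cultures, so the spread between them may be technical. The p-values rest on each strain's spread between screens of the same query, pooled over all queries, and not on the spread of these screens alone.

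As background, Hbs1 is a translational GTPase related to the release factor eRF3. With its partner Dom34 it enters the empty A site of a stalled ribosome and helps to split it, above all at the 3' ends of broken mRNAs. Slh1 is a large RNA helicase of the Ski2-like family and the motor of the RQT (ribosome quality control trigger) complex, which pulls apart collided ribosomes after the ubiquitin ligase Hel2 has marked them. The mRNA on which a ribosome stalls is degraded from its 3' side by the exosome, to which the SKI complex (the helicase Ski2, Ski3 and Ski8) feeds it, with Ski7 as the bridge between them.

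Each value below is a log2 ratio of query over reference population for 1 strain, where a strain is a pool member named by its altered gene. A negative value means that the double mutant was less abundant with the query deletion than in the reference mix. A strain was called lower or higher at an adjusted p under 0.05 and a mean size of at least 1 on the log2 scale. The fit was limma's moderated test over all queries, with the Benjamini-Hochberg adjustment over all 548016 strain and query pairs. Errors after ± are SDs over the 2 screens of a query. Ratios hold no signal over background, and precision is limited by how many arrays there were.

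The direction of the values was read from linkage to the query locus. A strain altered next to the query gene rarely combines both markers in 1 spore, so it should be scarce in the query population. As deposited, strains lying at most 25 genes from HBS1 had a median of 1.66 in HBS1 screen 1 and -2.04 in HBS1 screen 2. For SLH1 these medians were 2.47 in screen 1 and -2.71 in screen 2. Both arrays of the first reference pool thus ran opposite to both arrays of the second, and the screen 1 arrays were multiplied by -1, as were the other arrays of that pool. No label states this turn, so the direction of the screen 1 arrays is not settled beyond linkage. Across strains outside the linked windows, the screens of HBS1 correlated at r = -0.28 as deposited and 0.28 after the turn (3610 strains). Those of SLH1 correlated at -0.37 as deposited and 0.37 after the turn (3719 strains). These are correlations across strains, which are not independent replicates. After the turn, 35 of 35 and 36 of 36 strains within 25 genes of HBS1 were below 0 in the HBS1 screens. Within 25 genes of SLH1, 33 of 34 and 27 of 28 were below 0 in the SLH1 screens. Since the turn was decided by the median of these same strains, their sign is not an independent check of the direction. Strains 1 to 5 genes away had medians of -3.10 and -4.05 in the HBS1 screens and of -5.35 and -4.53 in the SLH1 screens. Strains more than 100 and up to 200 genes away had medians from 0.00 to 0.10. The HBS1 deletion strain itself stood at -0.60 and -3.78 in the HBS1 screens, and the SLH1 deletion strain at -2.66 and -2.80 in the SLH1 screens. The weak value of the HBS1 strain in screen 1 rested on 1 of its 2 features, since the other gave no value on that array. Strains within 100 genes of a query were left out for that query in all that follows.

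**Figure D1:**
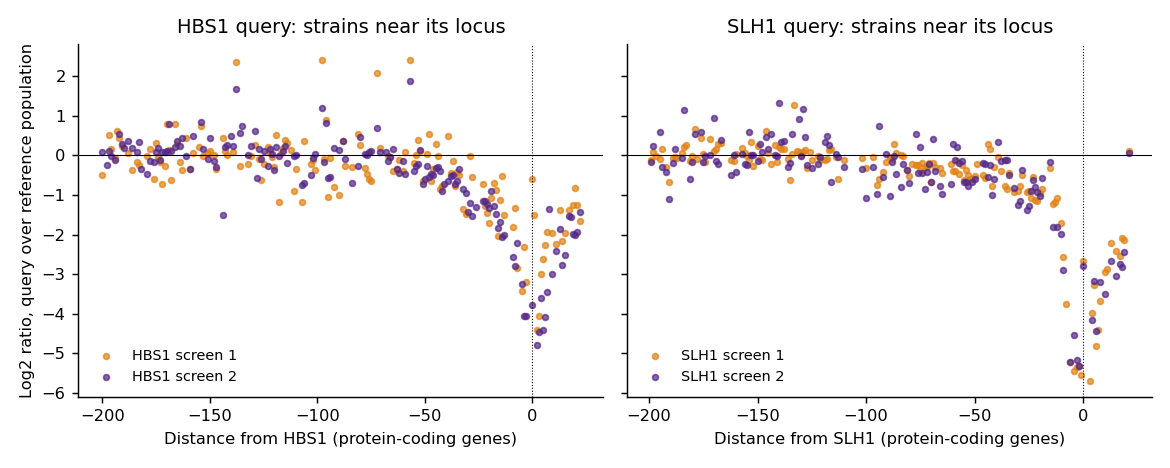
Log2 ratio of each strain (y axis) against its distance from the query gene in protein-coding genes (x axis), for the HBS1 query (left) and the SLH1 query (right), after the screen 1 arrays were multiplied by -1. Points are strains, coloured by screen. Both screens of each query fall towards the query locus, where the sign of screen 1 was set by the turn. Medians at 1 to 5 genes were -3.10 and -4.05 for HBS1 and -5.35 and -4.53 for SLH1.

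Both queries gave few calls with median-centred arrays. Of 3694 strains tested with HBS1, 11 were lower (0.298%) and 6 higher (0.162%), 17 in all. Of 3806 strains tested with SLH1, 7 were lower (0.184%) and 8 higher (0.21%), 15 in all. Over all 140 queries with at least 2 screens, 2.41% of pairs were lower and 1.22% higher, and a query had a median of 77 calls. With arrays centred on their medians, 18 of the 140 queries had fewer calls than HBS1 and 13 had fewer than SLH1. The counts depend on the scale of the arrays: scaling by the median absolute deviation gave 31 calls in HBS1 and 27 in SLH1, and quantile normalization 88 and 109. The place of these counts among the queries was not computed there. The values of the 4 arrays were also narrow: outside the linked windows their SDs were 0.543 and 0.369 in the HBS1 screens and 0.316 and 0.463 in the SLH1 screens. The agreement of screens ranked 104th of the 140 queries for HBS1 and 86th for SLH1 (median r over queries 0.504). With no array turned, HBS1 kept 1 of its 17 calls and gained 1, and SLH1 kept none.

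**Figure D2:**
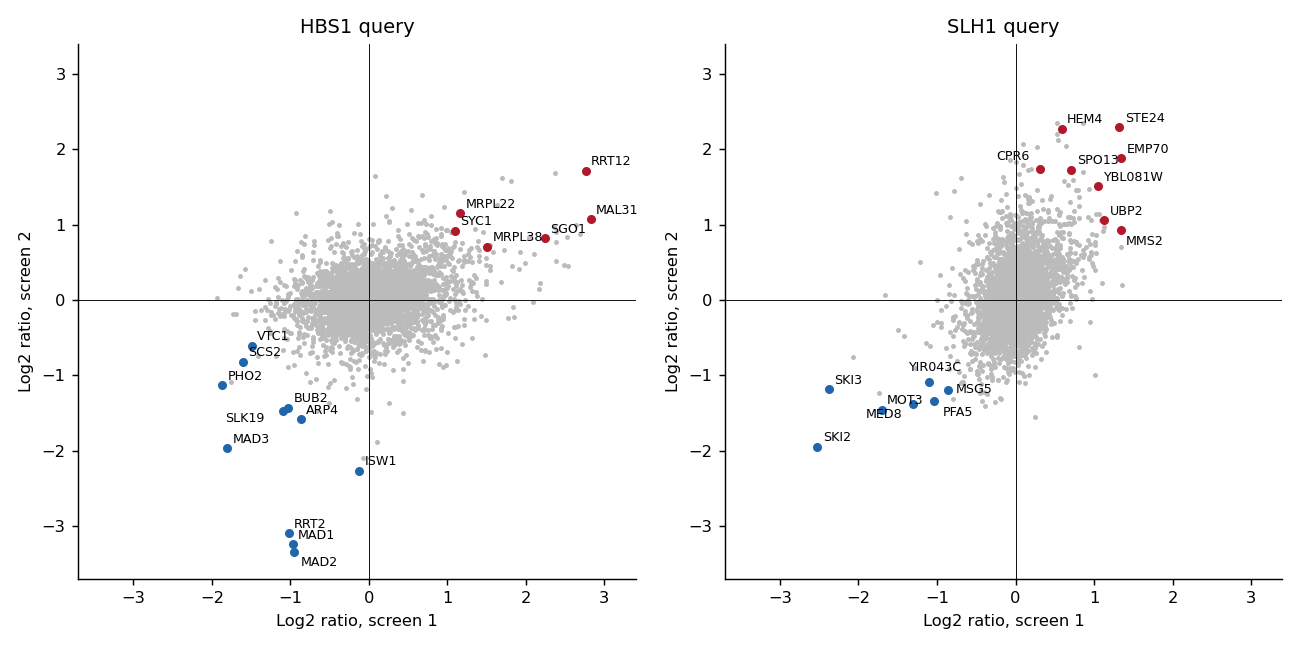
Log2 ratio of each unlinked strain in screen 1 (x axis) and screen 2 (y axis) of the HBS1 query (left) and the SLH1 query (right). Grey points are strains, blue points strains called lower and red points strains called higher; all 17 HBS1 calls and all 15 SLH1 calls have the same sign in both screens.

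Among the strains lowest with the HBS1 deletion were 3 of the spindle checkpoint. This checkpoint holds cells in metaphase until every kinetochore is attached to the spindle, and Mad1, Mad2 and Mad3 are core parts of it. The MAD2 strain stood at -0.96 and -3.34 in the HBS1 screens, against 0.26 and 0.17 in the SLH1 screens. The MAD1 strain stood at -0.97 and -3.24 with HBS1, against 0.41 and -0.18 with SLH1. The MAD3 strain stood at -1.81 and -1.97 with HBS1, against -0.24 and 0.36 with SLH1. For all 3 strains both HBS1 values lay below both SLH1 values. In HBS1 the means were -2.15 ± 1.69 for MAD2 (adjusted p = 5.38e-06), -2.11 ± 1.61 for MAD1 (adjusted p = 3.21e-10) and -1.89 ± 0.11 for MAD3 (adjusted p = 0.000322). MAD1 and MAD2 differed much between the HBS1 screens, and MAD3 hardly. Both features of MAD1 and of MAD2 showed this difference, with values given before centring. They were at -1.15 and -0.90 (MAD1) and -1.16 and -0.87 (MAD2) in screen 1. In screen 2 they were at -3.24 and -3.27 (MAD1) and -3.73 and -2.97 (MAD2). The features of MAD3 disagreed in screen 1, at -0.95 and -2.78, so its value there averages unlike features. In screen 2 those of MAD3 were at -1.73 and -2.22. Without screen 2, MAD1 was at -0.97 (adjusted p = 0.118) and MAD2 at -0.96 (adjusted p = 0.397). MAD3 was called from either screen alone.

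The strains of BUB2 and SLK19, which act in mitotic exit, were called lower as well. Bub2 is the catalytic part, with Bfa1, of the GTPase-activating protein that delays mitotic exit when the spindle is misplaced. The BUB2 strain stood at -1.03 and -1.43 with HBS1, against 0.00 and -0.14 with SLH1, and its HBS1 mean was -1.23 ± 0.28 (adjusted p = 0.000742). Slk19 is a kinetochore and spindle protein that takes part in early anaphase release of the phosphatase Cdc14. The SLK19 strain stood at -1.09 and -1.47 with HBS1, against 0.64 and 0.28 with SLH1, and its HBS1 mean was -1.28 ± 0.26 (adjusted p = 0.000503). Without screen 2, neither passed (adjusted p = 0.117 for BUB2 and 0.0931 for SLK19). The BFA1 strain was at -0.50 and -1.36 with HBS1 (adjusted p = 0.00131), and the strain of LTE1, a mitotic exit activator, at -0.75 and -1.08 (adjusted p = 0.0445). Their means of -0.93 and -0.92 fell short of the size needed for a call. In the other direction, the strain of SGO1, the shugoshin that guards centromeric cohesion and senses tension, stood at 2.24 and 0.82 with HBS1, against 0.04 and 0.69 with SLH1. It was called higher in HBS1 (mean 1.53 ± 1.00, adjusted p = 0.00129), but not without screen 1 (0.82, adjusted p = 0.487). A list of spindle checkpoint and mitotic exit genes drawn up after these values were seen had 16 members tested with HBS1. Of these, 5 were lower (MAD1, MAD2, MAD3, BUB2, SLK19) and 1 higher (SGO1), and none of the 16 tested with SLH1 was called. Over all strains tested with HBS1, 0.298% were lower and 0.162% higher. The list was not shifted as a whole: 8 of its 16 HBS1 means were below 0, against 49.2% of all strains. Its median was -0.34 over the HBS1 means, 0.02 in HBS1 screen 1 and -0.60 in HBS1 screen 2. Since the list was chosen on these values, its count is a description.

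The same strains were also called in some other queries. MAD1 was called lower in 9 of 136 queries, MAD2 in 13 of 138 and MAD3 in 7 of 138. SLK19 was called lower in 5 of 136 queries, and BUB2 in 2 of 135, which were HBS1 and GIM4, a subunit of the prefoldin chaperone. SGO1 had its highest mean of 114 queries in HBS1. In the other queries run against the first reference pool, the MAD1 strain ranged from -0.18 to 0.75 (7 screens), MAD2 from 0.06 to 0.43 and MAD3 from -0.47 to 0.19. Against the second pool they ranged from -1.12 to 0.27 (9 screens), from -2.40 to 0.52 and from -0.29 to 0.53. The HBS1 values of all 3 strains lay below these ranges in both pools.

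**Figure D3:**
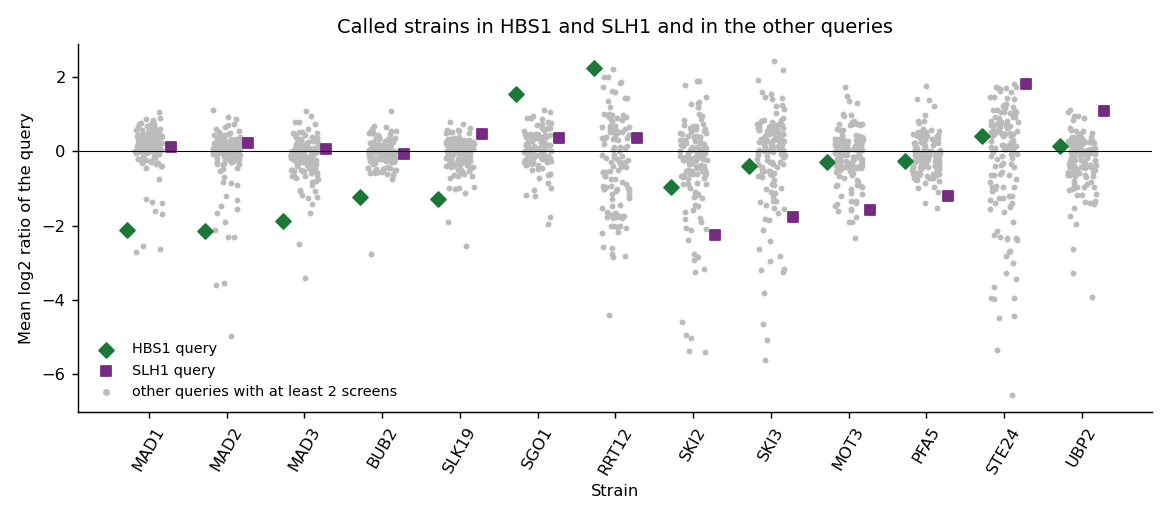
Mean log2 ratio (y axis) of 13 strains called in HBS1 or SLH1 (x axis) in the HBS1 query (green diamonds), the SLH1 query (purple squares) and each other query with at least 2 screens (grey points, spread sideways at random). MAD1, MAD2, MAD3, BUB2 and SLK19 sit low in HBS1 and near or above 0 in SLH1, at -0.07 to 0.46.

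The remaining strains lower with HBS1 came from several processes. RRT2, also named DPH7, acts in making diphthamide, the modified histidine of elongation factor eEF2. Its strain stood at -1.02 and -3.09 with HBS1 (mean -2.06 ± 1.46, adjusted p = 0.00152), against -0.14 and -0.58 with SLH1, and HBS1 gave the second lowest of its 130 query means. Without screen 2 it was at -1.02 (adjusted p = 0.556). PHO2, a homeodomain activator of phosphate genes, was at -1.87 and -1.13 (SD 0.52, adjusted p = 0.0495), against -0.85 and -0.92 with SLH1 (adjusted p = 0.42). ARP4, an actin-related subunit of chromatin complexes, was at -0.87 and -1.58 with HBS1 (mean -1.23 ± 0.51, adjusted p = 0.0173), against -0.08 and -0.16 with SLH1. SCS2, which tethers the endoplasmic reticulum to the plasma membrane, was at -1.60 and -0.82 with HBS1 (mean -1.21 ± 0.55, adjusted p = 0.00111), against 0.24 and -0.57 with SLH1. VTC1, a subunit of the vacuolar polyphosphate polymerase, was at -1.49 and -0.61 with HBS1 (mean -1.05 ± 0.63, adjusted p = 0.0131), against -0.32 and -0.24 with SLH1. ISW1, the ATPase of a chromatin remodeller, was also called (-0.12 and -2.27), with a low value in screen 2 alone. These strains were called in other queries too. ARP4 was called lower in 12 and higher in 5 of 132 queries, and VTC1 in 9 and 6 of 134. PHO2 was lower in 5 and higher in 8 of 129, and SCS2 in 6 and 2 of 139. ISW1 was lower in 6 and higher in 3 of 138, and RRT2 in 3 and 7 of 130. Without screen 1, the values of PHO2, SCS2 and VTC1 no longer passed (adjusted p = 0.506, 0.292 and 0.586). Without screen 2, the values of PHO2 and ARP4 did not (adjusted p = 0.108 and 0.449).

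Higher with the HBS1 deletion were 5 strains besides SGO1. RRT12, a subtilisin-like protease of spore wall formation, stood at 2.76 and 1.72 with HBS1 (mean 2.24 ± 0.74, adjusted p = 0.00994), against 0.16 and 0.56 with SLH1, and HBS1 was the highest of its 123 query means. In HBS1 screen 2 its value rested on 1 of its 3 features, and only 2 screens of other queries in that pool had a value. RRT12 was called higher in 5 and lower in 14 of the 123 queries. MAL31, a maltose permease, was at 2.82 and 1.08 with HBS1 (mean 1.95 ± 1.24, adjusted p = 0.0464), against 0.59 and 0.83 with SLH1. SYC1, a subunit of the mRNA cleavage and polyadenylation factor, was at 1.10 and 0.92 with HBS1 (mean 1.01 ± 0.12, adjusted p = 0.000525), against -0.26 and 0.86 with SLH1. MRPL22 and MRPL38 encode proteins of the large subunit of the mitochondrial ribosome. The MRPL22 strain stood at 1.17 and 1.15 with HBS1 (mean 1.16 ± 0.01, adjusted p = 0.00681), against -0.12 and 0.03 with SLH1. Its HBS1 screen 1 value rested on 1 of its 2 features, and in HBS1 screen 2 they disagreed, at 0.65 and 1.63 before centring. MRPL22 was called higher in 19 and lower in 3 of 133 queries, and HBS1 gave the 13th highest mean. Other queries of the second pool reached 1.13 for it. The MRPL38 strain stood at 1.50 and 0.71 with HBS1 (mean 1.11 ± 0.56, adjusted p = 0.0404), against -0.45 and 0.12 with SLH1. It was called higher in 7 and lower in 3 of 129 queries. MAL31 was higher in 8 and lower in 6 of 138, and SYC1 in 2 and 1 of 137. Without screen 1, none of these 5 passed (adjusted p = 0.334 for RRT12, 0.709 for MAL31, 0.0634 for SYC1, 0.114 for MRPL22 and 0.605 for MRPL38), and without screen 2, MRPL22 and MRPL38 did not (adjusted p = 0.105 and 0.0531).

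Mitochondrial ribosomal proteins were shifted as a list with HBS1. Of 69 genes in the list, 40 had a measured strain and 31 were tested with HBS1. MRPL22 and MRPL38 were higher, none was lower, and 30 of the 31 means were above 0. Their median was 0.81, against a median of 0.0047 over all strains tested with HBS1. In HBS1 screen 1 their median was 0.90 (31 of 34 above 0), and in HBS1 screen 2 it was 0.58 (34 of 35 above 0). With SLH1, 0 of 32 tested were called, the median of their means was -0.03, and the screen medians were -0.09 and 0.11. Over all strains about 50.7% of values were above 0 in each HBS1 screen. The other queries of the first pool had list medians from -0.35 to 0.29 (7 screens), below that of HBS1 screen 1. Those of the second pool ran from -0.22 to 0.90 (9 screens), a range that holds HBS1 screen 2. HBS1 had the 11th highest list median of 140 queries and SLH1 the 80th, in a range from -1.32 to 1.72. The other members were not called: RSM18 of the small subunit was at 1.39 and 0.79 with HBS1 (mean 1.09, adjusted p = 0.0689), and MRPL10 at 1.19 and 0.76 (adjusted p = 0.0768). A list of mitochondrial translation factors, drawn up after these values were seen, had a median of 0.74 with HBS1 (22 of 23 above 0, none called) and of -0.01 with SLH1 (22 tested, none called). Highest in it was SOV1, needed for expression of a mitochondrially encoded ribosomal protein, at 1.22 and 1.44 with HBS1 (adjusted p = 0.0533). A list of respiratory chain and ATP synthase subunits, drawn up likewise, had medians of 0.36 with HBS1 and 0.08 with SLH1, again with no calls. With the arrays as deposited, the median of the mitochondrial ribosomal list in HBS1 was -0.15.

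**Figure D4:**
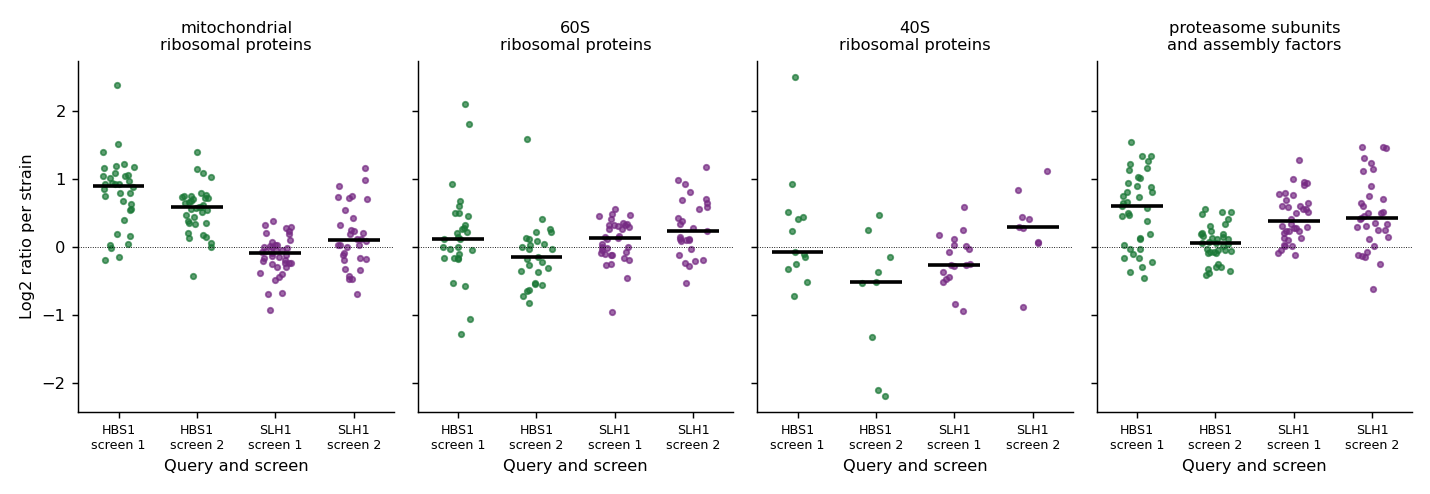
Log2 ratio per strain (y axis) in the 4 screens (x axis, HBS1 in green and SLH1 in purple) for 4 gene lists, with the list median as a black bar. The mitochondrial ribosomal list has medians of 0.90 and 0.58 in the HBS1 screens and of -0.09 and 0.11 in the SLH1 screens, while the proteasome list has positive medians in all 4.

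The strains lowest with the SLH1 deletion lacked 2 subunits of the SKI complex. The SKI2 strain stood at -1.73 and -0.18 in the HBS1 screens (mean -0.96 ± 1.10, adjusted p = 0.422). In the SLH1 screens it stood at -2.52 and -1.95 (mean -2.24 ± 0.41, adjusted p = 0.002). Its SLH1 screen 2 value rested on 1 of its 2 features, and in HBS1 screen 2 they disagreed, at -0.82 and 0.43 before centring. The SKI3 strain stood at -0.64 and -0.16 with HBS1 (mean -0.40 ± 0.34, adjusted p = 0.866), against -2.38 and -1.18 with SLH1 (mean -1.78 ± 0.85, adjusted p = 0.0137). Its 2 features disagreed in screen 2 of both queries. Before centring they were at 0.46 and -0.79 with HBS1 and at -0.58 and -1.84 with SLH1. For each strain both HBS1 values lay above both SLH1 values. The third subunit did not share this: SKI8 was at -1.02 and -0.88 with HBS1 (adjusted p = 0.404) and at -0.04 and 0.49 with SLH1. SKI7 was at -0.88 and -0.72 with HBS1 (adjusted p = 0.613) and at -0.10 and 0.50 with SLH1. In HBS1, then, SKI7 and SKI8 were negative in both screens without a call. With quantile normalization, however, SKI2 in HBS1 was at -1.76 (adjusted p = 0.00388) and SKI8 in HBS1 at -1.71 (adjusted p = 0.00268), and both were called lower. The difference between the queries was tested directly and was not called for any of these strains in the main test. HBS1 minus SLH1 was 1.28 ± 0.75 for SKI2 and 1.38 ± 0.70 for SKI3 (standard errors, adjusted p = 1 for both). With quantile normalization, SKI3 in HBS1 minus SLH1 was 2.43 (adjusted p = 0.00209) and was called.

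Of 14 genes in the list of the SKI complex and cytoplasmic exosome, 9 had a measured strain. With HBS1, 0 of 8 tested were called and the list median was -0.34. With SLH1, 2 of 8 were lower (SKI2 and SKI3) and the median was -0.14. The core exosome strains CSL4, RRP42 and DIS3 had means from -0.52 to 0.67 in the 2 queries, none called. SKI2 and SKI3 changed in many other queries: SKI2 was lower in 19 and higher in 3 of 139, and SKI3 lower in 18 and higher in 5 of 139. SLH1 gave the 12th lowest SKI2 mean and the 15th lowest SKI3 mean. In other queries against the first pool, SKI2 ranged from -5.61 to 1.55 and SKI3 from -5.65 to 1.62, which holds the SLH1 screen 1 values. Against the second pool SKI2 ranged from -0.94 to 1.86 and SKI3 from -0.43 to 2.27, and both SLH1 screen 2 values lay below. The call depended on screen 1, whose direction rests on linkage. Without it SKI2 was at -1.95 (adjusted p = 0.134) and SKI3 at -1.18 (adjusted p = 0.483), and with all arrays as deposited the means were 0.29 and 0.60. With the adjustment over the strains of SLH1 alone, SKI2 kept its call and SKI3 did not (adjusted p = 0.17).

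**Figure D5:**
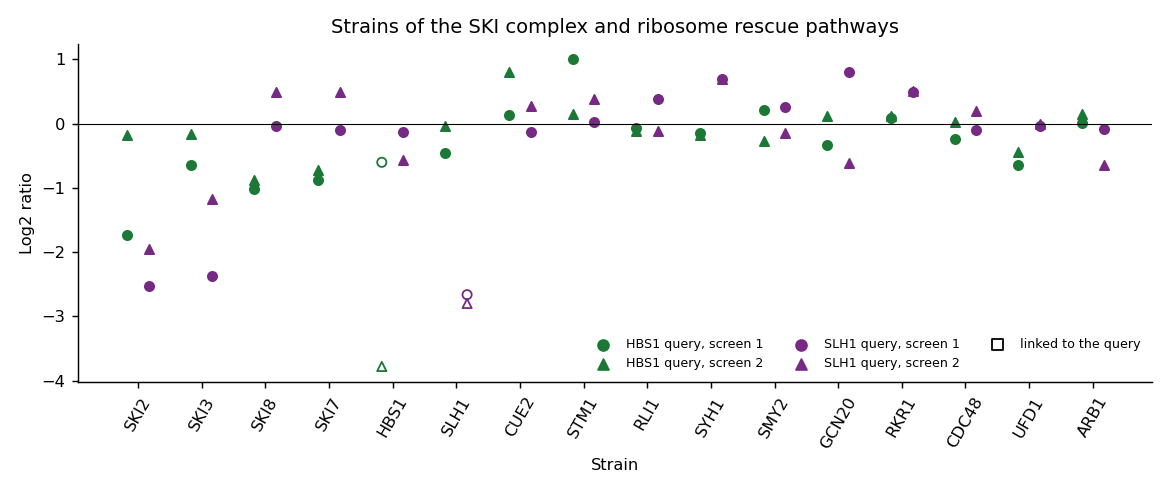
Log2 ratio (y axis) of the strains of the SKI complex and of ribosome rescue, collision sensing and ribosome quality control (x axis) in HBS1 screens (green, left) and SLH1 screens (purple, right), with circles for screen 1 and triangles for screen 2. Open symbols mark the deleted query gene itself. Apart from the SLH1 strain itself, SKI2 and SKI3 are lowest in SLH1. All strains other than SKI2, SKI3 and the query genes lie between -1.02 and 1.00.

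Strains of the pathways in which Hbs1 and Slh1 act gave no calls. Over all strains tested, 0.46% were called with HBS1 and 0.394% with SLH1. With so few members tested, the absence of calls says little about these pathways. In the ribosome rescue list, 5 of 6 genes had a measured strain, and none was called among 4 tested with HBS1 or 5 tested with SLH1. The strain of RLI1, the ABC ATPase that splits ribosomes with Dom34 and Hbs1, was at -0.06 and -0.11 with HBS1 and at 0.39 and -0.11 with SLH1. CUE2, the endonuclease of no-go decay, was at 0.13 and 0.80 with HBS1 and at -0.14 and 0.28 with SLH1. STM1, a ribosome preservation factor, was at 1.00 and 0.16 with HBS1 and at 0.03 and 0.39 with SLH1. In the list of collision sensing and the RQT complex, 5 of 11 genes had a measured strain and none was called. SYH1, a factor in the decay of mRNAs with stalled ribosomes, was at -0.14 and -0.18 with HBS1 and at 0.70 and 0.69 with SLH1 (adjusted p = 0.38 in SLH1). Its relative SMY2 was at 0.21 and -0.26 with HBS1 and at 0.26 and -0.14 with SLH1. GCN20, which acts with Gcn1 in sensing stress at the ribosome, was at -0.33 and 0.12 with HBS1 and at 0.81 and -0.62 with SLH1. NEW1, a translation factor, had values in screen 1 alone, 0.60 with HBS1 and -0.92 with SLH1, and was not tested.

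In the ribosome quality control complex list, 4 of 8 genes had a measured strain and none was called. RKR1 (also LTN1), the ubiquitin ligase that marks nascent chains on split 60S subunits, was at 0.09 and 0.12 with HBS1 and at 0.50 and 0.50 with SLH1 (adjusted p = 0.16 in SLH1). CDC48, the ATPase that extracts such chains, was at -0.24 and 0.02 with HBS1 and at -0.10 and 0.19 with SLH1. Its cofactor UFD1 was at -0.65 and -0.44 with HBS1 (adjusted p = 0.106) and at -0.03 and 0.00 with SLH1. ARB1, an ABC ATPase of ribosome biogenesis, was at 0.02 and 0.15 with HBS1 and at -0.08 and -0.64 with SLH1. Strains of DOM34, HEL2, ASC1, CUE3, RQT4, MBF1, GCN1, RQC1, RQC2, VMS1 and NPL4 were not analysed here, since the feature filter left no measured strain of them.

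HBS1 and SLH1 did not call each other. The SLH1 strain stood at -0.45 and -0.04 in the HBS1 screens (mean -0.24, adjusted p = 0.698), and the HBS1 strain at -0.14 and -0.56 in the SLH1 screens (mean -0.35, adjusted p = 0.762). Each had a few calls in other queries. The HBS1 strain was lower in 4 of 135: HCR1, an initiation and termination factor (-2.06 ± 0.86, adjusted p = 2.65e-07), the 40S ribosomal protein gene RPS14A (-1.87 ± 0.01, adjusted p = 3.93e-06), the nuclear exonuclease gene RAT1 (-1.21 ± 0.39, adjusted p = 0.00784) and the purine synthesis gene ADE4 (-1.21 ± 0.92, adjusted p = 0.00824). It was higher in none. The SLH1 strain was lower in 4 of 137 queries and higher in 1. The lower ones were the lysine synthesis gene LYS9 (-2.11 ± 0.95, adjusted p = 2.28e-17), the tRNA modification gene MOD5 (-1.74 ± 0.29, adjusted p = 1.01e-12), the proteasome transcription factor gene RPN4 (-1.20 ± 0.32, adjusted p = 1.38e-06) and the phosphatase gene PTC1 (-1.05 ± 0.09, adjusted p = 3.55e-05). The higher one was the small nucleolar RNA gene SNR37 (1.04 ± 0.03, adjusted p = 4.55e-05).

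The other strains lower with SLH1 included regulators of transcription. MOT3, a zinc finger repressor of hypoxic and other genes, stood at -0.44 and -0.14 with HBS1, against -1.70 and -1.45 with SLH1 (mean -1.58 ± 0.18, adjusted p = 8.01e-05), and it was called from either SLH1 screen alone. MED8, a subunit of the Mediator head, was at 0.46 and 0.13 with HBS1, against -1.31 and -1.37 with SLH1 (mean -1.34 ± 0.05, adjusted p = 0.0287). Both strains were also lower in many other queries: MOT3 was called lower in 17 of 134 and MED8 in 18 of 138. SLH1 gave the 7th lowest MOT3 mean and the 15th lowest MED8 mean. PFA5, a palmitoyltransferase, was at -0.29 and -0.25 with HBS1, against -1.04 and -1.35 with SLH1 (mean -1.19 ± 0.21, adjusted p = 0.00511). MSG5, a phosphatase of MAP kinases, was at -0.99 and -0.44 with HBS1, against -0.86 and -1.19 with SLH1 (mean -1.03 ± 0.24, adjusted p = 0.0379). MED8, MSG5 and PFA5 were not called without SLH1 screen 2 (adjusted p = 0.23, 0.39 and 0.183), nor MED8 and MSG5 without SLH1 screen 1 (0.192 and 0.128). YIR043C, an open reading frame of unknown function, was at -0.28 and 0.06 with HBS1, against -1.10 and -1.09 with SLH1 (adjusted p = 5.39e-08). SLH1 was the 1 query of 138 in which it was called. Its 4 features disagreed, however: 2 stood at -1.99 and -2.40 in SLH1 screen 1 and at -2.07 and -2.25 in SLH1 screen 2, while the other two lay between -0.39 and 0.25.

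Higher with the SLH1 deletion were 8 strains. STE24, the protease that processes prenylated proteins and clears blocked translocons, stood at 0.29 and 0.52 with HBS1, against 1.32 and 2.30 with SLH1 (mean 1.81 ± 0.69, adjusted p = 0.0246). SLH1 gave the second highest of its 135 query means. EMP70, an endosomal membrane protein, was at 0.76 and 0.36 with HBS1, against 1.34 and 1.88 with SLH1 (mean 1.61 ± 0.38, adjusted p = 0.0178). MMS2 and UBP2 make and remove ubiquitin chains linked through lysine 63. The MMS2 strain was at 0.02 and 0.62 with HBS1, against 1.34 and 0.93 with SLH1 (mean 1.13 ± 0.29, adjusted p = 0.0168). It was higher in 26 of 136 queries, and SLH1 gave the 16th highest of its means. The UBP2 strain was at -0.12 and 0.40 with HBS1, against 1.13 and 1.06 with SLH1 (mean 1.10 ± 0.05, adjusted p = 0.0422), the second highest of its 138 query means. UBC13, the catalytic partner of MMS2, was at 1.36 and 0.20 with SLH1 (adjusted p = 0.566), and RAD5, the ligase of the same repair pathway, at 0.22 and -0.16 (adjusted p = 0.994). HEM4, of haem synthesis, and SPO13, a meiotic regulator, had values in HBS1 screen 2 alone, 1.05 for HEM4 and 0.81 for SPO13. With SLH1, HEM4 was at 0.59 and 2.28 (mean 1.43 ± 1.19, adjusted p = 0.011) and SPO13 at 0.71 and 1.73 (mean 1.22 ± 0.72, adjusted p = 0.00951). YBL081W, of unknown function, was at 0.79 and 0.78 with HBS1, against 1.05 and 1.51 with SLH1 (mean 1.28 ± 0.33, adjusted p = 0.00357). It was higher in 36 of 137 queries. Its 4 features disagreed, at 1.56, 0.39, 0.41 and 1.75 in SLH1 screen 1 before centring. In SLH1 screen 2 they stood at 1.76, 0.44 and 2.24, with 1 missing. CPR6, an Hsp90 co-chaperone, was at 0.46 and 0.12 with HBS1, against 0.31 and 1.74 with SLH1 (adjusted p = 0.0365), high in SLH1 screen 2 alone. From SLH1 screen 2 alone HEM4, SPO13 and YBL081W kept their calls, and from screen 1 alone none of these did (adjusted p = 0.766, 0.555 and 0.209). STE24, EMP70, MMS2 and UBP2 passed from neither screen alone, with adjusted p from 0.0566 (STE24 without screen 1) to 0.458 (STE24 without screen 2). With the adjustment over the strains of SLH1 alone, none of the 8 higher strains was called, and the 3 calls left in SLH1 were SKI2, MOT3 and YIR043C. The same adjustment left 11 of the 17 calls in HBS1, without ARP4, PHO2, VTC1, RRT12, MAL31 and MRPL38.

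Several SLH1 calls did not hold once the other queries of the same reference pool were taken off. The cause was not tested. When the mean of the other queries of the same pool was taken from each screen, 15 of the 17 HBS1 calls and 6 of the 15 SLH1 calls remained. In HBS1, MAL31 and PHO2 lost their calls (adjusted p = 0.0853 and 0.0752). In SLH1, EMP70, HEM4, MMS2, MSG5, PFA5, SPO13 and YBL081W then had adjusted p from 0.147 (PFA5) to 0.588 (YBL081W). YIR043C fell short in size at -0.89, and CPR6 was not called either. SKI2, SKI3, MOT3, MED8, STE24 and UBP2 were still called. The median of the proteasome strains was 0.33 with HBS1 (0 of 35 called) and 0.44 with SLH1 (0 of 33 called), and after this step 0.04 with HBS1 and 0.19 with SLH1.

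The direct comparison of the queries asked where the 2 deletions differed. The test set the query means against each other without pairing screens by pool. HBS1 minus SLH1 was called negative for 4 of 3512 strains (0.114%) and positive for none, with 138 strains at an unadjusted p under 0.05 in limma's test. The 4 were MAD2 (-2.36 ± 0.53, standard error, adjusted p = 0.0204), MAD1 (-2.22 ± 0.39, adjusted p = 0.000147), SLK19 (-1.74 ± 0.39, adjusted p = 0.0204) and MNT2 (-1.55 ± 0.37, adjusted p = 0.0267). MAD3 differed by -1.94 ± 0.56 (adjusted p = 0.261) and BUB2 by -1.16 ± 0.39 (adjusted p = 0.604). With the reference pool as a replicate block in a separate fit, 8 strains were called, and MAD3 was among them (adjusted p = 0.0117). MNT2, a mannosyltransferase of the Golgi, stood at -1.15 and -0.17 with HBS1, against -0.07 and 1.86 with SLH1, and was called in neither query. HBS1 gave the lowest and SLH1 the highest of its 137 query means. Its value in SLH1 screen 2 rested on 1 of its 2 features. Leaving out HBS1 screen 2, the differences of MAD1 and MAD2 were -1.09 (adjusted p = 0.502) and -1.17 (adjusted p = 0.8). Leaving out SLH1 screen 1, those of MAD1 and MAD2 had adjusted p = 0.0557 and 0.157, and the adjusted p of MAD2 was 0.351 without SLH1 screen 2. SLK19 had adjusted p from 0.0709 to 0.24 with any 1 screen left out, and MNT2 had an adjusted p of 1 without HBS1 screen 1 or SLH1 screen 2.

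Other lists of translation and mRNA decay had no calls in either query: nonsense-mediated decay, deadenylation and decapping, initiation, elongation and termination, general amino acid control, ribosome-associated chaperones, 40S assembly, wobble uridine modification, and 40S and 60S ribosomal proteins. The share called over all strains was 0.46% with HBS1 and 0.394% with SLH1, so lists of this size would rarely hold a call. The list of deadenylation, decapping and 5' to 3' decay had medians of -0.35 with HBS1 and 0.10 with SLH1, and the 60S ribosomal list 0.04 with HBS1 and 0.22 with SLH1. Among all queries, likeness was measured as the mean correlation across strains over screen pairs that shared no reference pool. Highest for HBS1 were HTB2, a histone H2B gene (r = 0.25), RPS28A, a 40S ribosomal protein gene (0.24), and the mitotic cyclin gene CLB2 (0.24). Highest for SLH1 were HTB2 (0.34), RTC3 (0.33) and HRD1, the ubiquitin ligase of endoplasmic reticulum degradation (0.32). All of these are weak. HBS1 and SLH1 had r = 0.16 and 0.12 in the 2 pairs of screens with different pools. This placed SLH1 19th of 139 for HBS1 and HBS1 41st of 139 for SLH1. Screens of HBS1 and SLH1 that shared a pool had r = 0.13 (screen 1) and 0.28 (screen 2). The value for screen 2 was about as high as the 0.28 between the HBS1 screens themselves.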

How the data were processed

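The authors deposited 1 table of array values with 1 value per feature and array. These are ratios of the query population (Cy3) and the reference population (Cy5), per the labels, taken here as deposited log2 ratios. How they were normalized is not given in the sources used here, nor are the log base, the centring or the sign. The 2 queries and the gene lists were chosen with earlier results of these data known.

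Features with 1 gene symbol and a value on at least 80% of arrays were averaged per strain (8632 features of 15744, 4125 strains), and the median of each array was set to 0. Arrays with a positive median over strains at most 25 genes from the query (17 of 312, all of 2 reference pools) were multiplied by -1. Gene order and updated names came from the R64 annotation: 5098 of 5100 symbols matched. A mean per query was fitted over the 304 screens (limma 3.58.1, R 4.3.3; prior degrees of freedom 4.82, median residual SD 0.382), and the script was tested on simulated data. Tests were two-sided. Because a strain's variance is pooled over all queries, a small p does not show that the screens of a query agree.

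The 4 arrays held values for 8919 and 9763 (HBS1) and 11268 and 9141 (SLH1) features. Replicate numbers of HBS1 and SLH1 pair the samples, since the labels give each number 1 shared reference pool. The deviations of same-numbered screens from their query means correlated at r = 0.06 over 3512 strains. Over all queries, the correlation within a reference pool was 0.25, as estimated on 400 strains for a fit with the pool as a random block.

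Named strains were, per query, up to 12 lower and 8 higher calls by size whose screens agreed in sign with a size of at least 0.5 in each, up to 5 each way for the difference, all measured members of the rescue, collision and quality control lists, SKI2, SKI3 and SKI8, up to 3 called members of each other list, and the 3 most alike queries. ISW1, CPR6, BFA1, LTE1, UBC13, RAD5, RSM18, MRPL10, SOV1, CSL4, RRP42, DIS3 and the members named in the closing observations were named after their values were seen. No sequence is shown, as none was given.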

Additional observations from a re-analysis of the deposited data

Results flagged for a closer look

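Strains for which the effect of the HBS1 deletion differed from that of the SLH1 deletion in the direct test were MAD1 (HBS1 minus SLH1 -2.22), MAD2 (-2.36), SLK19 (-1.74) and MNT2 (-1.55). MAD1, MAD2 and SLK19 were lower in HBS1 and not called in SLH1. In MAD1 and MAD2 the size came mostly from HBS1 screen 2, at -3.24 and -3.34, against -0.97 and -0.96 in HBS1 screen 1. MNT2 was called in neither query, and its difference came from HBS1 screen 1 (-1.15) and SLH1 screen 2 (1.86). In that SLH1 screen 1 of its 2 features gave a value.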

How the results depend on the processing

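Main counts were 17 calls in HBS1, 15 in SLH1 and 4 in HBS1 minus SLH1. Under no feature filter, the median over features and linked windows of 50 or 200 genes they stayed within 1.5 times. As deposited, they were 2, 0 and 0 (131, 47 and 54 at an unadjusted p under 0.05), and 15 means changed sign: in HBS1 MAL31 -0.87, MRPL22 -0.0085, MRPL38 -0.40, PHO2 0.37, RRT12 -0.52, SCS2 0.39, SGO1 -0.71, SYC1 -0.0874 and VTC1 0.44, and in SLH1 MMS2 -0.21, MOT3 0.12, SKI2 0.29, SKI3 0.60, UBP2 -0.0325 and YIR043C 0.0054. Turning no array sets the 2 screens of each query against each other, which is this setting's own construction. Quantile normalization gave 88, 109 and 62 calls (76.1%, 73.4% and 62.9% of them lower, against 64.7%, 46.7% and 100% in the main counts). Scaling by the median absolute deviation gave 31, 27 and 10 (51.6%, 44.4% and 80% lower), and the reference pool as a random block 29, 21 and 10 (48.3%, 42.9% and 90.0% lower). Taking off the other queries of the same pool gave 27 in HBS1 (48.1% lower), 19 in SLH1 (31.6% lower) and 4 in the difference, of which 3 were main calls (MNT2 was lost, adjusted p = 0.0777). Benjamini-Hochberg within the query gave 11, 3 and 4. A fit of only the 4 arrays called 0 in each, with 433, 373 and 240 at an unadjusted p under 0.05. The cause of these shifts was not tested. With 1 screen left out, calls ran from 13 to 56 in HBS1, from 5 to 34 in SLH1 and from 1 to 14 in the difference. The replicate block, with the reference pool as a fixed term, gave 8 calls in the difference, all 4 main ones among them. Of the 34 calls named, 33 held under quantile normalization, 34 under scaling and the random block, 23 after taking off the pool and 17 with the adjustment within the query. Depth is unknown, as the ratios hold no signal over background.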

Other observations

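Members of COMPASS, the complex that methylates histone H3 on lysine 4, were below 0 with the HBS1 deletion. All 6 tested were negative in both screens, with a median of -0.55, and none was called. SWD1 stood at -0.95 and -0.86 (adjusted p = 0.0657), SWD3 at -0.80 and -0.97 (adjusted p = 0.123) and SDC1 at -0.89 and -0.42 (adjusted p = 0.393). With SLH1 the 7 tested had a median of -0.05. The list was drawn up after these values were seen, and COMPASS medians in other queries of the same pools ran from -0.72 to 0.67 and from -1.71 to 0.23, which holds both HBS1 screens. SWD2, the essential subunit, lies 98 genes from HBS1 and was left out for it, though its values were 2.41 and 1.20.

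The 2 strains ISW1 (YBR245C) and RRT2 (YBR246W), both called lower in HBS1, are altered in neighbouring genes. Both were far lower in HBS1 screen 2, at -2.27 and -3.09, than in HBS1 screen 1, at -0.12 and -1.02. In the other queries of that pool ISW1 ranged from -0.21 to 1.04 and RRT2 from -0.23 to 2.19. Both strains were also called lower in the RCO1 and SXM1 queries. RCO1 gave the lowest mean of each, at -2.78 for ISW1 and -3.93 for RRT2.

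The kinetochore strains CHL4, CTF19 and MCM21, outside the checkpoint and picked after their values were seen, leaned the other way from MAD1, MAD2 and MAD3 in HBS1. CHL4 was at 0.84 and 0.35 (adjusted p = 0.0544), CTF19 at 0.49 and 0.23 and MCM21 at 0.67 and 0.25, none of them called. They had like values with SLH1, at 0.47 and 0.21 for CHL4, 0.64 and 0.27 for CTF19 and 0.66 and 0.29 for MCM21. Not all kinetochore strains leaned this way in HBS1. SLK19 was called lower (-1.09 and -1.47), MIF2 was at -0.61 and 0.12, and ASK1 at -0.21 and 0.01.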
